A study of Mus musculus with 16 samples.

Results

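The goblet cell signature of the mouse intestine was compared between 2 regions of the gut, gene by gene. The comparison takes in 16 of the 16 libraries of the study, in 4 groups of 4. Distal colon (DC) was sorted into goblet cells and the rest of its epithelium, and so was section 8 of the small intestine (Si8). For each gene the goblet effect is the log2 fold change of goblet cells over the other epithelial cells of the same region. The quantity tested is the difference between the DC effect and the Si8 effect, which is positive where the effect is higher in DC and negative where it is lower.

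All animals were RedMUC298trTg mice aged 6 to 8 weeks, a line in which an mCherry-tagged MUC2 makes the mucus-producing cells fluoresce. The epithelium was loosened in EDTA and broken up with collagenase before live cells were sorted by mCherry: the positive cells are called goblet cells here (GC in the labels) and the negative cells are called other cells (EC in the labels). A C57Bl6 mouse served as the negative control of the sort. RNA of goblet cells was taken up on MinElute columns and RNA of other cells on Mini columns, so in both regions the column cannot be told apart from the sort. Libraries were stranded and made from total RNA depleted of ribosomal RNA. Whether the 4 libraries of a group stem from different mice is not in the labels, so the p-values measure only the spread between libraries, which may be technical.

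Goblet cells are secretory cells that make gel-forming mucin in the endoplasmic reticulum, build O-linked sugar chains on it in the Golgi and release it from apical granules. In the colon the mucus forms a stratified layer that keeps bacteria at a distance from the surface, while in the small intestine it is looser and is mixed with antimicrobial products of Paneth cells. The epithelium around the goblet cells differs too: colonocytes absorb salt and water, and small intestinal enterocytes digest and take up nutrients. A difference of the goblet effect can therefore come from the level in goblet cells, from the level in the surrounding cells or from both, and the levels in all 4 groups are given for that reason. In bulk samples, fewer cells of a type and less RNA per cell cannot be told apart.

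Total counts per library ranged from 11916381 to 18532241 in DC and from 30842725 to 41080052 in Si8. Levels are in CPM, counts relative to library totals scaled by trimmed mean of M values (TMM), given as mean ± SD with n = 4 libraries, and effects are log2 fold changes ± SE. The 7 goblet cell markers (Muc2, Fcgbp, Clca1, Zg16, Tff3, Spdef and Atoh1) summed to between 34925 and 39437 CPM in DC goblet libraries against 244 to 310 in DC other libraries, and to between 124494 and 296521 against 291 to 721 in Si8, so these markers separated the sorts as labelled in all 16 libraries. The 5 colonocyte markers summed to 6574 to 7377 CPM in DC other and 187 to 277 in DC goblet cells. In Si8 they summed to 2415 to 3639 CPM in other and 933 to 1831 in goblet cells. The 6 enterocyte markers summed to 5637 to 13185 CPM in Si8 other and 601 to 1340 in Si8 goblet cells. In DC they summed to 148 to 172 CPM in other and 26.3 to 34.4 in goblet cells. The absorptive signal left in the goblet sort thus differed by region, and its part in the goblet effects was not tested. Other cell types were not equally present. The 11 Paneth cell markers in the tables summed to between 14876 and 42004 CPM in Si8 goblet cells, 873 to 2332 in Si8 other cells, and at most 28.3 in any DC library. The 15 markers of intraepithelial lymphocytes summed to between 287 and 432 CPM in Si8 other cells, 16.9 to 29.1 in Si8 goblet cells, 9.97 to 11.6 in DC other cells and 4.22 to 6.06 in DC goblet cells. The 8 mast cell markers ranged from 28.8 to 193 CPM in Si8 other cells and stayed at or under 8.53 in every other library. The part of these cell types in the results was not tested. The counts of the regions were deposited in separate tables, and mitochondrially encoded genes stood at 0 in every DC library but held 6.07 to 8.36% of the counts in Si8 other and 3.19 to 4.07% in Si8 goblet libraries. Where levels are compared between the regions, the region and the making of its table cannot be told apart, while each goblet effect is taken within a table.

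Of 15945 genes tested, the goblet effect differed between the regions for 5141, which is 32.2% (edgeR's quasi-likelihood test, Benjamini-Hochberg adjusted p under 0.05). The DC effect was above the Si8 effect for 2245 of them (14.1%) and below it for 2896 (18.2%). This split of 43.7% above depends on the scaling of the libraries: with total counts and no scaling factors, 61.3% of the called genes had the higher effect in DC, and the median difference over all genes moved by 0.17 from -0.07. A log2 difference of at least 1 was reached by 2435 called genes (15.3%), 1020 with the higher effect in DC (6.4%) and 1415 with the higher effect in Si8 (8.87%). These 2435 genes are divided below by the calls in each region. A goblet effect was called for 55% of genes in DC and 64.9% in Si8, and one of at least 1 for 22.6% and 23.4%. The shares of all genes in this paragraph are the yardstick for the counts of list members below.

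In a reversal, a gene was higher in goblet cells of 1 region and lower in goblet cells of the other, both called. This was found for 504 genes (3.16% of those tested): 213 were higher in goblet cells of DC and lower in those of Si8, and 291 were the opposite. Both effects were at least 1 on the log2 scale for 138 of them, 77 and 61 in these directions. The median of the smaller of each gene's 2 effects was 0.68. Another 509 genes (3.19%) had a goblet effect of at least 1 in DC and none called in Si8, 167 higher and 342 lower in DC goblet cells, and 536 (3.36%) had one in Si8 only, 199 higher and 337 lower. An effect that was not called in a region is not shown to be absent there: with libraries of neighbouring numbers in the titles treated as pairs, 70 of the 509 were also called in Si8 and 78 of the 536 in DC. A further 701 genes (4.4%) went the same way in both regions with a different size, and 185 fell in none of these kinds. Across the 15945 genes the effects in the regions had a Pearson correlation of 0.58 and a Spearman correlation of 0.58, given as a description over genes, which are not independent replicates.

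**Figure D1:**
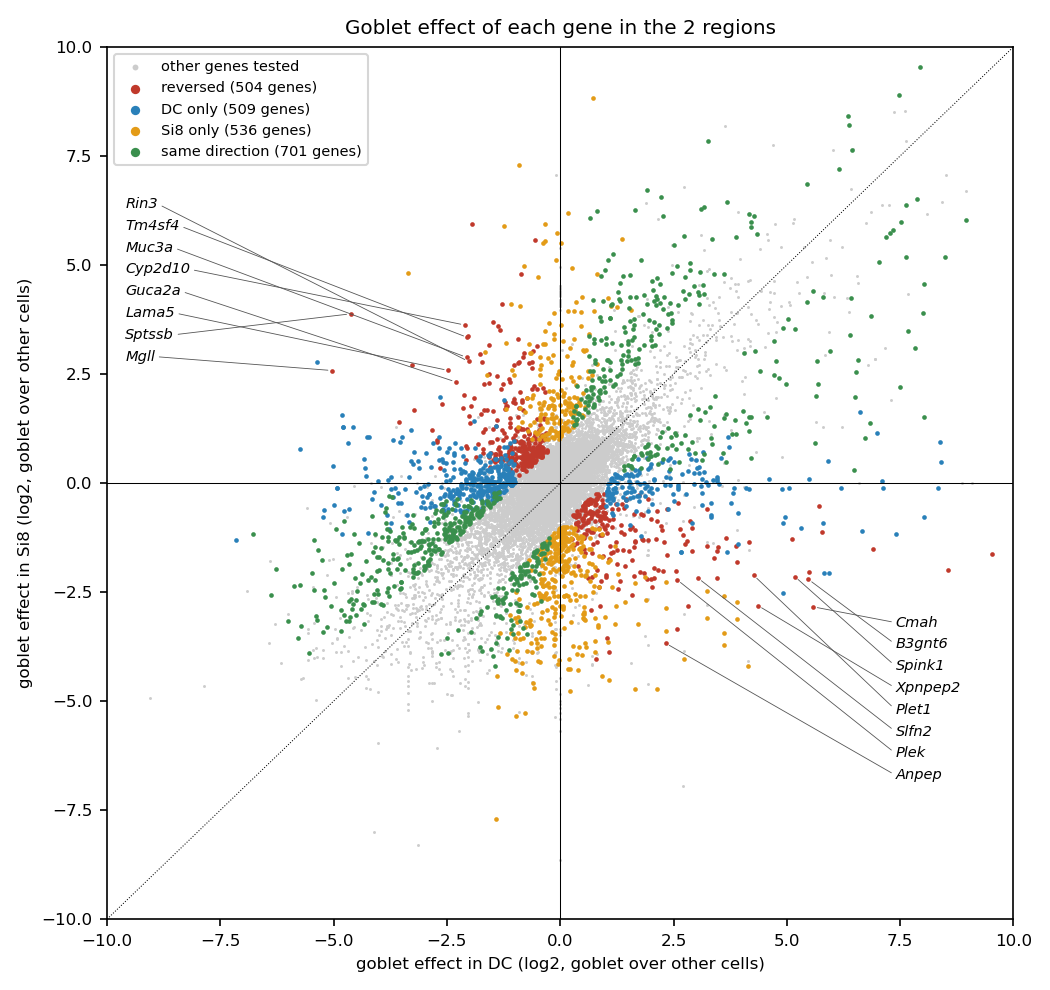
Goblet effect in DC (horizontal axis) against the goblet effect in Si8 (vertical axis), both as log2 fold change of goblet over other cells, with 1 point per tested gene coloured by kind and the equal-effect line dotted. The 504 reversed genes lie where the 2 effects have opposite signs, and the 16 labelled genes are those with the largest smaller effect of at least 1 in each direction.

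For most of these genes the epithelium around the goblet cells changed more between the regions than the goblet cells did. Of the 2435 genes, the DC against Si8 change was larger in other cells for 1596 and larger in goblet cells for 839. The change between regions was called in other cells and not in goblet cells for 561 genes, and in goblet cells and not in other cells for 331. Of all genes tested, 66.8% had a called change between the regions in other cells and 62.2% in goblet cells. The share of all genes with the larger change in other cells was not worked out. Whether the counts of larger changes given here and below depart from that share is therefore unknown. Among the reversed genes the change was larger in other cells for 359 and in goblet cells for 145. The genes higher in goblet cells of DC only went the other way, with a larger change in goblet cells for 110 and in other cells for 57.

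Cmah and B3gnt6, which encode enzymes of sugar chain synthesis, were higher in goblet cells of DC and lower in those of Si8. Cmah (chr13:24327404-24477377), the hydroxylase that turns N-acetylneuraminic acid into N-glycolylneuraminic acid, stood in DC at 3.62, 3.66, 4.31 and 5.26 CPM in other cells and 197, 224, 225 and 160.3 CPM in goblet cells. In Si8 it stood at 0.940, 0.657, 0.988 and 0.465 CPM in other cells and 0.0550, 0.0532, 0.101 and 0.202 CPM in goblet cells. The 4 DC goblet libraries lay far above all others, and both Si8 sorts were under 1 CPM, with the goblet libraries below the other libraries. The goblet effect was 5.58 ± 0.17 in DC and -2.84 ± 0.40 in Si8, a difference of 8.42 ± 0.41 (adjusted p = 1.6e-11). B3gnt6 (chr7:98192417-98199481), the core 3 synthase of mucin-type O-glycans, stood at 1.26, 1.16, 1.28 and 0.697 CPM in other cells and 46.97, 55.4, 43.1 and 51.7 CPM in goblet cells in DC and at 3.98, 4.26, 5.11 and 3.79 CPM in other cells and 0.989, 0.585, 1.21 and 0.954 CPM in goblet cells in Si8. Neither region showed an overlap of the sorts, and the DC goblet libraries alone were above 6 CPM. The effects were 5.48 ± 0.18 and -2.21 ± 0.18, differing by 7.68 ± 0.25 (adjusted p = 5.9e-14).

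The mucin O-glycosylation list had 20 of 32 tested genes called, 11 with the higher effect in DC and 9 with the higher effect in Si8, with a median difference of 0.05 beside -0.07 over all genes. Its 4 reversed members, Gcnt1, B3gnt6, B3gnt7 and Gal3st2, all were higher in goblet cells of DC and lower in those of Si8. Gcnt1, a core 2 branching enzyme, measured 196 ± 24.3 CPM in goblet against 122 ± 8.71 in other cells of DC, and 12.7 ± 4.16 against 56.2 ± 7.58 in Si8. B3gnt7, which extends keratan sulfate type chains, had effects of 1.23 ± 0.13 and -0.49 ± 0.12. Gal3st2, a galactose 3-O-sulfotransferase with close copies among which reads may be split, went from 0.395 ± 0.102 to 48.4 ± 9.20 CPM in DC and from 94.1 ± 13.8 down to 33.1 ± 7.27 in Si8. Its difference of 8.42 ± 0.30 (adjusted p = 4.5e-13) was made up of a regional change of -7.87 in other cells against 0.55 in goblet cells.

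Enzymes that add sialic acid moved differently from one another. St6gal1, which adds it in alpha-2,6 linkage, was higher in goblet cells of both regions, at 458 ± 62.5 against 2.52 ± 0.364 CPM in DC and 13.04 ± 1.08 against 2.83 ± 0.476 in Si8. Its effect of 7.50 in DC exceeded that of 2.20 in Si8 by 5.30 ± 0.19 (adjusted p = 1.3e-13), and the other cells of the 2 regions differed by only -0.16 ± 0.16. St3gal1, which caps core 1 glycans in alpha-2,3 linkage, fell in goblet cells of DC, from 20.3 ± 4.99 to 1.01 ± 0.164 CPM. In Si8 it stood at 29.5 ± 6.08 in goblet and 20.3 ± 11.6 in other cells, where the libraries overlapped and the effect of 0.54 ± 0.37 was not called (adjusted p = 0.21). St3gal4, the member of the list with the highest level, fell in both regions by 3.42-fold and 3.57-fold, and its difference of 0.06 had a 95% interval of -0.28 to 0.40. Gcnt2, the I-branching enzyme, fell 42.998-fold in DC goblet cells and 2.48-fold in those of Si8, a difference of -4.12 ± 0.24. The initiating transferases Galnt5, Galnt12 and Galnt4 were higher in goblet cells of both regions with the larger effect in Si8 (differences of -1.997, -1.19 and -0.48).

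Anpep, Xpnpep2, Dpp4 and Ace, which encode peptidases of the cell membrane, were higher in goblet cells of DC and lower in those of Si8. Anpep (chr7:79821803-79861059), which encodes aminopeptidase N, stood in DC at 1.37, 2.13, 1.35 and 2.28 CPM in other cells and 8.26, 10.7, 10.1 and 6.94 CPM in goblet cells. In Si8 it stood at 7899, 6619, 9172 and 10356 CPM in other cells and 578, 523, 783 and 784 CPM in goblet cells. In DC the goblet libraries were the higher ones and in Si8 the lower ones, without overlap, but all DC libraries were far below all Si8 libraries. The effects were 2.33 ± 0.24 in DC and -3.67 ± 0.18 in Si8, with a difference of 6.000 ± 0.29 (adjusted p = 1.3e-11). Xpnpep2 (chrX:48108725-48136981), a membrane-bound aminopeptidase that cleaves before proline, measured 0.712, 0.488, 0.471 and 0.824 CPM in other cells and 14.5, 13.2, 13.3 and 11.2 CPM in goblet cells in DC and 418, 321, 515 and 613 CPM in other cells and 56.1, 50.6, 82.9 and 76.5 CPM in goblet cells in Si8. Again the goblet libraries were above the others in DC and below them in Si8. The difference was 7.18 ± 0.35 (adjusted p = 1.1e-10). Dpp4, which removes dipeptides after proline, and Ace, the angiotensin-converting enzyme, reversed in the same sense with effects of 0.67 and 0.88 in DC and -2.91 and -2.82 in Si8.

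The small intestinal digestion list had 13 of 27 tested genes called, 11 of them with the DC effect above the Si8 effect, and a median difference of 2.08. All 27 fell in goblet cells of Si8, where 31.4% of all genes did, with a median effect of -2.92. In DC 13 fell, 4 rose (Anpep, Dpp4, Ace and the fructose transporter Slc2a5) and 10 were not called, and the median was -0.997. The medians take in members with few DC counts, whose DC effects are uncertain. Mme and Treh were under 1 CPM in every DC library, and Apoa4 had no counts in DC other cells. Mgam, the maltase-glucoamylase with the highest level in the list, fell in both, from 495 ± 19.7 to 338 ± 17.1 CPM in DC and from 7001 ± 1159 to 1736 ± 82.5 in Si8. Slc26a6, an anion exchanger of the apical membrane, was lower in goblet cells of Si8, at 56.9 ± 8.62 against 491 ± 102 CPM. In DC it measured 2.43 ± 0.246 and 1.70 ± 0.312 CPM, where the effect of 0.52 ± 0.23 was not called (adjusted p = 0.064) although the 4 goblet libraries were the higher ones.

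Spink1, a secreted trypsin inhibitor, reversed as well. Its DC libraries measured 8.82, 9.99, 9.02 and 10.1 CPM in other cells and 382, 343, 356 and 292 CPM in goblet cells. Its Si8 libraries measured 153, 137, 169.7 and 176 CPM in other cells and 32.9, 30.3, 43.7 and 36.8 CPM in goblet cells. DC goblet and Si8 other cells were the groups with high values and no library of 1 sort reached the other in either region. The effects were 5.18 ± 0.13 and -2.15 ± 0.11 and the difference was 7.32 ± 0.17 (adjusted p = 4.5e-16).

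The guanylin peptides, which neighbour each other on chromosome 4, reversed in opposite directions. Guca2a encodes guanylin and Guca2b encodes uroguanylin, both ligands of the receptor guanylate cyclase C, which raises cyclic GMP and drives chloride and bicarbonate secretion. Their RefSeq starts lie 21.2 kb apart on opposite strands. The 250 bases before each start (GRCm38.p6, Guca2a chr4:119637482-119637731 on the plus strand, Guca2b chr4:119658946-119659195 on the minus strand) are shown because these neighbours moved in opposite ways, with capitals at the matches to the motifs searched.
Guca2a: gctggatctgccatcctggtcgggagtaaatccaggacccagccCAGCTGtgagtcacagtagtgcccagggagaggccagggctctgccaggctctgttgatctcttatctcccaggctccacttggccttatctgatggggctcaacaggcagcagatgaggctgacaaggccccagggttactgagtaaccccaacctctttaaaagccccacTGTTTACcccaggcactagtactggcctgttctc
Guca2b: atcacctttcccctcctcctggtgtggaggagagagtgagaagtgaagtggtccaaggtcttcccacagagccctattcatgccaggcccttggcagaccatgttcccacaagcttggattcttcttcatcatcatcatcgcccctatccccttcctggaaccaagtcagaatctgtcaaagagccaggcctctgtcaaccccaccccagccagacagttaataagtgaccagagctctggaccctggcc
The motifs were CAAAGTCCA (HNF4), TTTATTG (CDX), TGTTTAC (FOX) and CAGCTG (an E-box), searched on both strands. The Guca2a window held TGTTTAC 34 bases before the start and CAGCTG 206 bases before it, and the Guca2b window held no match. Among 32851 windows of all genes, 3.17% held TGTTTAC, 13% held CAGCTG, 4.2% held TTTATTG and 0.384% held CAAAGTCCA. Among the 13648 windows of tested genes these shares were 2.41%, 12.2%, 2.49% and 0.396%. In the 471 windows of the 356 reversed genes with a window, the shares were 2.97%, 15.9%, 1.06% and 1.06%.

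Guca2a measured 1019, 981, 1159 and 1040.5 CPM in other cells and 234, 219, 209 and 190.2 CPM in goblet cells in DC. In Si8 it measured 164, 156, 186 and 203 CPM in other cells and 836, 804, 1049 and 851 CPM in goblet cells. Other cells were the high group in DC and goblet cells the high group in Si8, with no overlap in either region. Guca2a fell 4.93-fold in goblet cells of DC and rose 4.99-fold in those of Si8, effects of -2.30 ± 0.11 and 2.32 ± 0.11 that differ by -4.62 ± 0.15 (adjusted p = 5.9e-14). Guca2b measured 4.05, 3.47, 3.16 and 3.93 CPM in other cells and 26.4, 23.3, 19.5 and 22.2 CPM in goblet cells in DC. In Si8 it measured 85.1, 90.02, 127 and 144 CPM in other cells and 49.5, 47.4, 50.3 and 66.4 CPM in goblet cells. Here goblet cells were the high group in DC and the low group in Si8. The effects were 2.64 ± 0.19 and -1.06 ± 0.15 with a difference of 3.70 ± 0.24 (adjusted p = 2e-09). The receptor gene Gucy2c was among the genes whose difference was not called, with effects of -0.17 in DC and -0.31 in Si8 and a 95% interval of the difference of -0.06 to 0.33.

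In the ion and fluid secretion list 10 of 15 tested genes were called, 7 with the DC effect below the Si8 effect, and the median difference was -0.51. Ano1, a calcium-activated chloride channel, fell from 387 ± 18.9 to 210.3 ± 10.6 CPM in DC goblet cells and rose from 5.90 ± 0.388 to 25.2 ± 6.46 in those of Si8. Kcne3, a potassium channel subunit of the basolateral membrane, reversed in the same sense with effects of -0.47 ± 0.13 and 0.86 ± 0.13. Its partner Kcnq1 and the chloride channel Cftr fell in DC by 2.02-fold and 2.01-fold, and their Si8 effects of 0.10 and -0.08 were not called. Slc12a2, the sodium, potassium and chloride cotransporter and the member with the highest level, rose 2.34-fold in DC and 2.35-fold in Si8, with a 95% interval of the difference of -0.33 to 0.32. Best2, a bicarbonate-permeable channel, stood at 215 ± 43.96 CPM in DC goblet cells, 0.626 ± 0.296 in DC other cells and under 0.1 CPM in both Si8 sorts. Its difference of 7.92 ± 1.29 (adjusted p = 8.3e-05) was no longer called when the Si8 counts were thinned to the depth of DC (adjusted p = 0.0999).

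Plek, Slfn2 and Plet1 also were higher in DC goblet cells and lower in those of Si8. Plek (chr11:16971206-17052381), or pleckstrin, a substrate of protein kinase C, measured 3.45, 1.52, 2.76 and 1.96 CPM in other cells and 14.6, 14.4, 15.4 and 14.02 CPM in goblet cells in DC and 9.08, 9.78, 8.46 and 7.04 CPM in other cells and 1.54, 2.07, 1.85 and 1.91 CPM in goblet cells in Si8. DC goblet libraries were above DC other libraries, and Si8 goblet libraries below Si8 other libraries. The difference was 4.801 ± 0.25 (adjusted p = 2.8e-11). Slfn2 (chr11:83065112-83070678), of the Schlafen family, whose close members may share reads, measured 0.657, 0.305, 1.01 and 0.697 CPM in other cells and 6.83, 6.06, 4.59 and 4.50 CPM in goblet cells in DC. In Si8 it measured 19.6, 14.1, 16.7 and 10.96 CPM in other cells and 4.42, 3.30, 3.29 and 2.46 CPM in goblet cells. The difference was 5.22 ± 0.36 (adjusted p = 1.7e-09). Beside both genes, the summed lymphocyte markers were 287 to 432 CPM in Si8 other cells, their high group in Si8. In DC goblet cells this sum was 4.22 to 6.06 CPM. There Cd3g, Gzma, Gzmb, Cd7, Nkg7 and Cd2, 6 of the 15 markers, stood at 0 in all 4 libraries. Others did not, with Lck at 1.38 to 3.22 CPM and Ptprc at 1.36 to 1.85. The 13 markers of B, plasma and myeloid cells summed to 80.4 to 148 CPM in Si8 other cells. They summed to 37.5 to 68.3 in Si8 goblet, 6.28 to 9.76 in DC other and 4.77 to 6.65 in DC goblet cells. The part of any of these cell types in the effects was not tested. Plet1 (chr9:50494525-50505482), a surface protein of progenitor cells, reached 89.5 ± 9.06 CPM in DC goblet against 4.64 ± 1.10 in DC other cells, but in Si8 the libraries measured 103, 62.6, 65.3 and 18.1 CPM in other cells and 24.2, 12.6, 15.4 and 5.06 CPM in goblet cells and overlapped. Its difference was 6.39 ± 0.72 (adjusted p = 1.2e-05).

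Sptssb, Mgll and Cyp2d10 reversed in the opposite sense, lower in DC goblet cells and higher in those of Si8. Sptssb (chr3:69819542-69859940), a small subunit of serine palmitoyltransferase that widens its choice of acyl chains, measured 56.6, 48.7, 61.9 and 57.02 CPM in other cells and 1.96, 2.92, 2.38 and 1.97 CPM in goblet cells in DC. In Si8 it measured 0.506, 0.736, 0.461 and 0.565 CPM in other cells and 6.24, 7.15, 12.03 and 8.93 CPM in goblet cells. DC other cells were the highest group and Si8 other cells the lowest. The effects were -4.62 ± 0.19 and 3.88 ± 0.22 and the difference was -8.51 ± 0.29 (adjusted p = 8.5e-14). Mgll (chr6:88724412-88828360), monoacylglycerol lipase, measured 30.5, 23.2, 32.8 and 32.1 CPM in other cells and 0.635, 1.42, 0.719 and 0.938 CPM in goblet cells in DC and 2.28, 1.94, 2.997 and 2.92 CPM in other cells and 13.7, 17.3, 16.6 and 12.9 CPM in goblet cells in Si8. The goblet libraries were all below the others in DC and all above them in Si8. The difference was -7.62 ± 0.27 (adjusted p = 1.1e-13). Cyp2d10 (chr15:82402846-82407195), a cytochrome P450 of a cluster of near-identical genes and so uncertain as to the copy, fell 4.30-fold from 33.4 ± 7.50 CPM in DC and rose from 0.140 ± 0.0516 to 1.83 ± 0.573 CPM in Si8.

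Lama5 (chr2:180176373-180225859), lower in DC goblet cells and higher in those of Si8 as well, encodes the laminin alpha 5 chain of the basement membrane. It measured 77.6, 50.8, 89.6 and 101 CPM in other cells and 9.53, 19.7, 15.7 and 12.99 CPM in goblet cells in DC and 2.46, 2.76, 4.02 and 2.06 CPM in other cells and 12.8, 17.9, 13.3 and 23.8 CPM in goblet cells in Si8. Its goblet cells did not differ detectably between the regions (-0.24 ± 0.26, 95% interval -0.80 to 0.32), while other cells were 28.2-fold higher in DC. Tm4sf4 (chr3:57425314-57441677), a tetraspan membrane protein, was low throughout DC, at 2.46 ± 0.432 CPM in other and 0.602 ± 0.166 in goblet cells, and rose from 16.2 ± 4.58 to 164 ± 45.6 in Si8. Rin3 (chr12:102283048-102390855), an exchange factor of the endosomal GTPase Rab5, fell 4.07-fold in DC goblet cells and rose 6.91-fold in those of Si8, a difference of -4.81 ± 0.35. Muc3a (chr5:137208813-137212389) went from 33.9 ± 3.96 down to 8.08 ± 1.24 CPM in DC and from 14.6 ± 2.96 up to 108 ± 36.3 in Si8. Muc3, a membrane mucin of the brush border that is listed separately and may share reads with it, fell in goblet cells of both regions (-3.54 and -2.42), so the value of Muc3a is uncertain. Scnn1a, a subunit of the epithelial sodium channel, fell from 182 ± 8.05 to 64.6 ± 5.62 CPM in DC and rose from 3.46 ± 0.573 to 44.3 ± 9.005 in Si8, a difference of -5.18 ± 0.18 (adjusted p = 1.1e-13). Klf4, a transcription factor of goblet cell and surface cell maturation, fell 1.93-fold in DC and rose 1.52-fold in Si8, where the libraries overlapped.

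**Figure D2:**
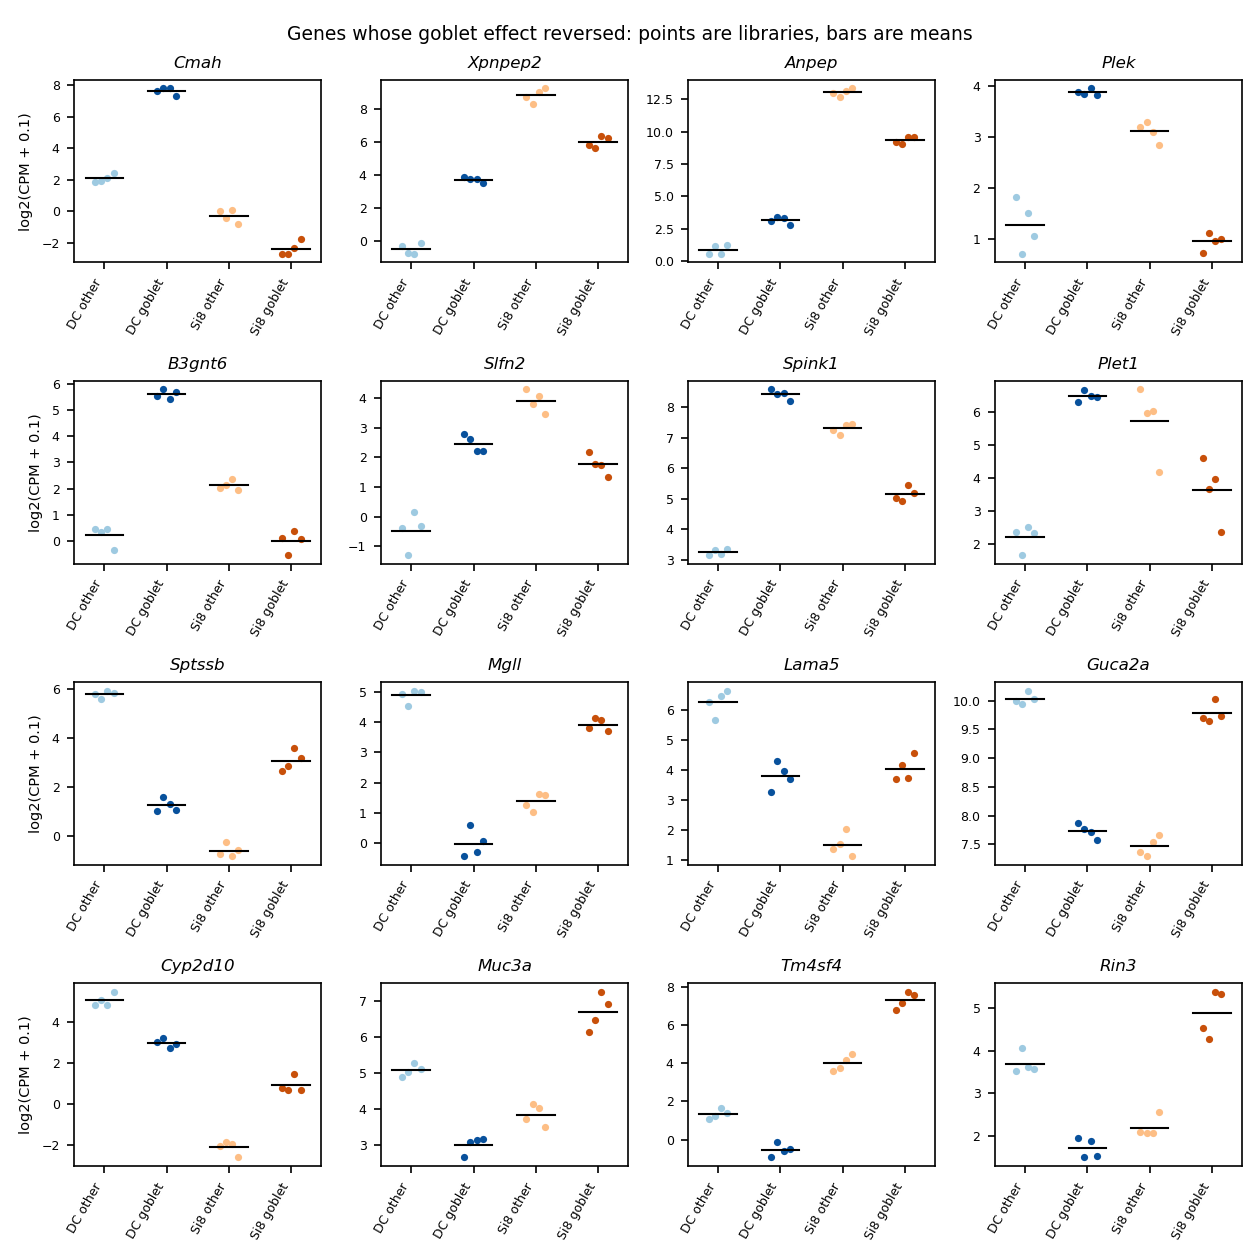
Level of the 16 labelled reversed genes in each library, as log2(CPM + 0.1) on the vertical axis, for other and goblet cells of DC and Si8; points are libraries and bars are means of 4. In 15 of the 16 genes the sorts did not overlap in either region, and in Plet1 they overlapped in Si8.

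Goblet effects that appeared in DC only were of 2 kinds. In 251 of the 509 genes the higher Si8 sort reached at least 1 CPM, and in 258 it did not. Dll4, a Notch ligand of secretory progenitors and deep crypt cells, rose from 3.22 ± 0.327 CPM in DC other cells to 46.1 ± 5.80 in DC goblet cells. In Si8 it stood at 43.7 ± 8.20 in other cells and 40.7 ± 5.15 in goblet cells, an effect of -0.10 with a 95% interval of -0.36 to 0.15. The 4 DC other libraries were thus the low ones, and goblet cells of the 2 regions differed by 0.18 ± 0.12. Il6ra, the receptor chain for interleukin 6, and Itpr1, a calcium channel of the endoplasmic reticulum, instead were high in DC goblet cells alone. Il6ra measured 22.2 ± 6.38 CPM there and between 1.27 and 1.90 in the means of the other 3 groups. Itpr1 measured 169 ± 26.7 CPM there against 28.1, 23.8 and 23.2 in DC other, Si8 other and Si8 goblet cells, a difference of 2.62 ± 0.14 (adjusted p = 3.1e-11). Slfn4 rose 5.63-fold in DC goblet cells, to 369 ± 55.8 CPM, and its Si8 effect was -0.25 ± 0.29 (adjusted p = 0.47).

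Among the 342 genes lower in goblet cells of DC only, the regional change was larger in other cells for 245. Pla2g3, a secreted phospholipase A2, stood at 39.3 ± 5.28 CPM in DC other cells and 4.03 ± 0.495 in DC goblet cells, with 1.53 ± 0.670 and 2.13 ± 0.827 in the Si8 sorts. Ppm1j, a protein phosphatase, showed the same order with 60.03 ± 11.4 CPM in DC other cells and means from 3.82 to 6.41 in the remaining groups. Tmem181c-ps is a pseudogene whose reads may come from its parent gene, and fell 10.1-fold in DC. Aqp8, the water channel of the colon surface, fell from 1055 ± 51.97 to 19.8 ± 4.44 CPM in DC and was under 0.1 CPM in both Si8 sorts. Dmbt1, a mucin-like scavenger protein, fell from 4546 ± 359 to 858 ± 39.5 CPM in DC, while in Si8 it measured 5279 ± 2207 and 4181 ± 1349.9 (effect -0.34 ± 0.25, adjusted p = 0.25, and 0.00245 with neighbouring library numbers paired).

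Of the 199 genes higher in goblet cells of Si8 only, 136 reached 1 CPM in a DC sort, and the regional change was larger in other cells for 145. Anxa3, a calcium-dependent phospholipid-binding protein, measured 228 ± 15.1 CPM in DC other, 179.98 ± 6.39 in DC goblet, 0.835 ± 0.257 in Si8 other and 52.99 ± 18.4 in Si8 goblet cells. Its Si8 effect was 5.95 ± 0.24 and its DC effect was -0.34 ± 0.17 (adjusted p = 0.097), although the 4 DC goblet libraries were all below the DC other libraries. Gna14, a G protein alpha subunit of the Gq class, was likewise low in Si8 other cells alone, at 94.1, 106, 0.624 and 46.5 CPM in the same order of groups, with a difference of -6.03 ± 0.33 (adjusted p = 5.8e-10). Srgap1, a GTPase-activating protein of Slit and Robo signalling, rose 34.4-fold in Si8 goblet cells, and its DC effect was -0.10 (95% interval -0.48 to 0.29). Sox9, a transcription factor of crypt base cells, measured 55.4 ± 6.10 and 55.8 ± 6.96 CPM in other and goblet cells of DC and rose from 15.1 ± 2.25 to 32.9 ± 6.74 in Si8. The Paneth marker sum beside these genes was 14876 to 42004 CPM in Si8 goblet cells, and its part in them was not tested.

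Of the 337 genes lower in goblet cells of Si8 only, the regional change was larger in other cells for 270. Ada, adenosine deaminase, measured 227 ± 113 CPM in Si8 other against 14.8 ± 2.55 in Si8 goblet cells and 5.21 ± 1.30 and 7.34 ± 1.29 in DC other and goblet cells. Slc25a48, a mitochondrial carrier, measured 116 ± 44.98 against 6.78 ± 2.20 CPM in Si8 and 1.08 ± 0.161 and 0.816 ± 0.171 CPM in other and goblet cells of DC, where the effect was -0.44 ± 0.52. Itgae, the integrin alpha E chain of intraepithelial lymphocytes, measured 27.5 ± 1.85 CPM in Si8 other cells and 2.05 ± 0.628, 1.19 ± 0.408 and 0.882 ± 0.238 in Si8 goblet, DC other and DC goblet cells. It belongs to the lymphocyte marker list, of which all 14 tested genes fell in Si8 goblet cells and 7 in those of DC. The list's median effect was -3.96 in Si8 and -2.50 in DC, and 4 genes were called as different (Cd8b1, Ptprc, Itgae and Lck), a share close to the 32.2% of all genes. Of all genes 31.4% fell in Si8 goblet cells and 29.5% in those of DC. Cd8b1 lost its call without DC goblet replicate 2 (adjusted p = 0.388) and replicate 4 (0.0834), and with the Si8 counts thinned (0.055).

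**Figure D3:**
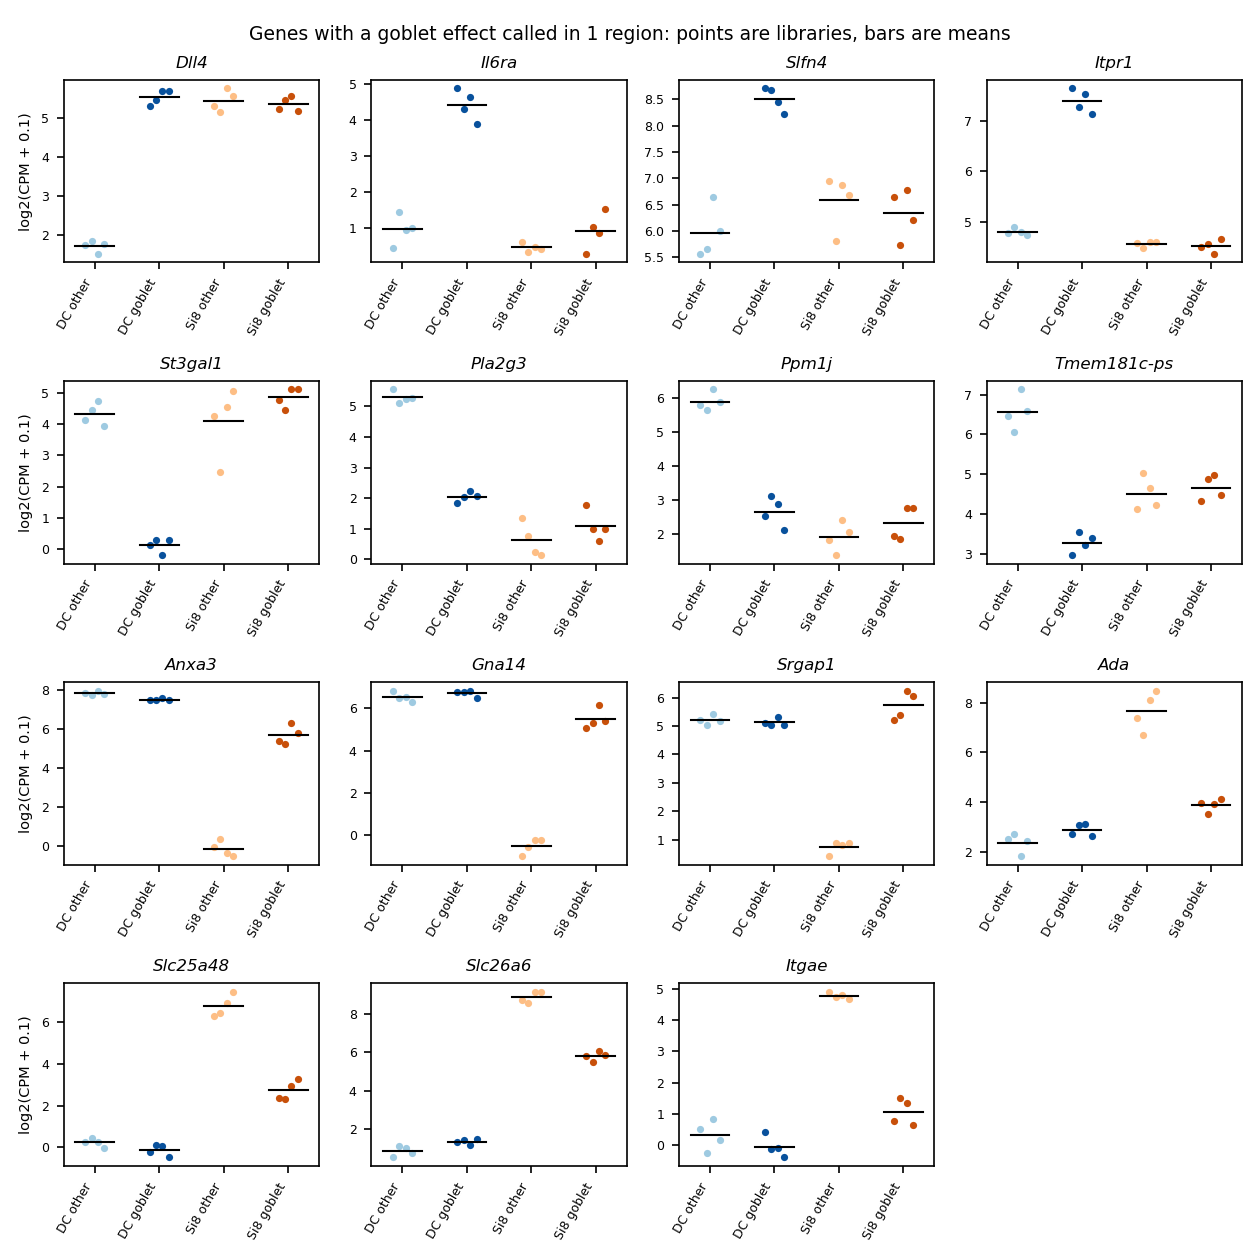
Level in each library of 15 genes whose goblet effect was called in 1 region, as log2(CPM + 0.1) on the vertical axis, for other and goblet cells of DC and Si8; points are libraries and bars are means of 4. The upper 8 genes have the effect in DC and the lower 7 in Si8, and the low group is DC other cells in Dll4 and Si8 other cells in Anxa3, Gna14 and Srgap1.

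Of 10 mucus components 9 rose in goblet cells of DC and 9 in those of Si8, with effects that differed in size. Of the 10 mucus components 8 were called, 7 with the larger or less negative effect in Si8 and 1, Spink4, with the larger effect in DC, and the median difference was -1.72. Muc2 rose from 41.5 ± 7.02 to 10168 ± 604 CPM in DC and from 55.5 ± 26.9 to 41068 ± 18468 in Si8, a difference of -1.60 ± 0.45 (adjusted p = 0.011). The sort used an mCherry-tagged MUC2, and whether reads of the tagged form were counted under Muc2 was not tested. Clca1, a mucus-processing protease, and Zg16, a lectin that binds Gram-positive bacteria, had larger effects in Si8, with differences of -2.07 ± 0.40 and -1.84 ± 0.40. Agr2, a disulfide isomerase needed for mucin folding, was at near levels in goblet cells of DC (4403 ± 250.3 CPM) and Si8 (4601 ± 559), while other cells held 227 ± 61.1 CPM in DC and 66.3 ± 32.4 in Si8. Klk1, a tissue kallikrein of a family with close copies, gave the widest gap, with effects of 2.23 ± 0.15 in DC and 6.56 ± 0.19 in Si8, where DC other cells held 439 ± 34.2 CPM and Si8 other cells 4.83 ± 1.38. Fcgbp, the most abundant member, had a difference of -0.92 ± 0.35 that was not called (adjusted p = 0.054, and 0.000791 with neighbouring library numbers paired).

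Transcription factors of the secretory lineage split. Of 14 tested, 10 were called, 5 in each direction, with a median difference of 0.02. Atoh1, the factor that commits cells to the secretory lineage, Gfi1 and Bhlha15 had the larger effect in DC, by 1.54 ± 0.30, 3.03 ± 0.41 and 1.85 ± 0.27. Gfi1 stood at 34.4 ± 4.84 and 32.97 ± 9.39 CPM in goblet cells of DC and Si8 and at 0.296 ± 0.147 and 2.32 ± 0.345 in the other cells. Creb3l1, Foxa2 and Foxa3 had the larger effect in Si8, with differences of -2.47 ± 0.19, -1.69 ± 0.21 and -1.48 ± 0.20, while Spdef, the factor of goblet cell maturation, had 0.78 ± 0.36 (adjusted p = 0.11). Of 6 markers of deep crypt secretory cells, which neighbour the stem cells of the colon, 5 were called with the larger effect in DC, and the median difference was 1.71. Reg4, a secreted lectin-like protein, measured 1376 ± 312 CPM in DC goblet cells and 112 ± 38.7 in Si8 goblet cells, against 14.4 and 15.7 in other cells. Kit, the receptor of stem cell factor, and Egf, a growth factor, differed by 1.96 ± 0.16 and 1.46 ± 0.28.

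Early steps of secretion and granule release had their larger median goblet effects in different regions. In ER folding 17 of 29 tested genes were called, 15 of them with the DC effect above the Si8 effect. In ER to Golgi transport 18 of 27 were called, 17 of them with the DC effect above. The median differences were 0.36 and 0.50. In granule exocytosis 16 of 19 were called, 12 of them with the DC effect below the Si8 effect, and the median difference was -1.23. Of all genes, 32.2% were called, 14.1% with the DC effect above and 18.2% with it below. P4hb, protein disulfide isomerase, rose 3.11-fold in DC goblet cells and 1.53-fold in those of Si8, and the chaperone Hyou1 rose 2.90-fold and 1.47-fold. Hspa5, the most abundant chaperone of the list, rose 2.10-fold and 1.67-fold, a difference not called (adjusted p = 0.19, and 0.0211 with neighbouring library numbers paired). Ern2, the stress sensor IRE1 beta of mucous cells, went against its list with effects of 3.16 ± 0.19 in DC and 6.33 ± 0.23 in Si8. Lman1, a cargo receptor, and Sec24d, a COPII coat protein, rose 5.49-fold and 4.58-fold in DC against 2.06-fold and 2.09-fold in Si8, and Sec24a and Sec16b reversed (0.68 and 0.32 in DC, -0.70 and -0.73 in Si8).

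Among granule genes, Sytl5, a Rab27 effector, rose from 1.43 ± 0.449 to 5.36 ± 0.377 CPM in DC and from 0.599 ± 0.130 to 62.7 ± 23.1 in Si8, a difference of -4.800 ± 0.45 (adjusted p = 2.9e-07). Rab27b, Rab27a and Sytl2 of the same machinery rose in both regions, with larger effects in Si8 (differences of -2.17 ± 0.19, -1.19 ± 0.24 and -1.41 ± 0.30). Sytl1 rose only in Si8 by call, 3.28-fold, with a DC effect of -0.27 ± 0.13. Syt7, a calcium sensor of exocytosis, went the other way, 12.2-fold higher in DC goblet cells and 2.83-fold in those of Si8. Exph5, another Rab27 effector, reversed, from 95.3 ± 12.3 to 189 ± 24.3 CPM in DC and from 125 ± 12.1 to 77.96 ± 6.04 in Si8. Fer1l6, the most abundant member, had a difference of -1.42 ± 0.46 (adjusted p = 0.026) that was lost when any of DC other replicates 1, 2 and 4 or Si8 other replicates 2 and 4 was left out, with adjusted p up to 0.0716.

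Genes of cholesterol synthesis and its regulation were higher in goblet than in other cells of DC and lower in goblet cells of Si8 by their medians, 0.45 and -0.47. Of 20 tested, 18 were called with the DC effect above the Si8 effect and 1, Dhcr7, with the DC effect below, beside 14.1% and 18.2% of all genes, and the median difference was 0.92. In DC 11 rose and 2 fell (25.5% and 29.5% of all genes), and in Si8 16 fell and 4 were not called. Reversals were found for 5 of them: Fdps, Mvk, Idi1, Cyp51 and Mvd. Fdps, farnesyl diphosphate synthase, measured 8.27, 9.81, 8.35 and 8.93 CPM in other cells and 22.03, 15.9, 16.8 and 19.4 CPM in goblet cells in DC. In Si8 it measured 14.97, 13.6, 20.3 and 13.02 CPM in other cells and 7.28, 10.2, 9.37 and 7.72 CPM in goblet cells. DC goblet libraries were the high ones in DC and Si8 other libraries in Si8. Its difference was 1.91 ± 0.21 (adjusted p = 7.9e-07). Hmgcs1, the synthase that supplies HMG-CoA, rose 1.78-fold in DC goblet cells, to 1038 ± 226 CPM, and its Si8 effect of -0.28 ± 0.16 was not called. Sqle, squalene epoxidase, fell 1.99-fold in Si8 goblet cells with a DC effect of 0.15 ± 0.11.

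Genes of surface differentiation had lower goblet effects in DC than in Si8. Of 12 genes of surface differentiation 11 were called, each with the DC effect below the Si8 effect, and the median effects were -3.21 in DC and -0.75 in Si8. Emp1, a membrane protein of maturing epithelium, fell from 1164 ± 211 to 27.2 ± 7.33 CPM in DC and from 464 ± 66.6 to 84.7 ± 18.9 in Si8. Krt20, the keratin of differentiated cells, fell 15.4-fold in DC and 2.35-fold in Si8. Slc20a1, a phosphate transporter, fell 13.2-fold and 1.25-fold. Lypd8, a secreted protein that binds flagella, reversed: it fell from 6261 ± 403 to 997 ± 79.997 CPM in DC and was 1.26-fold higher in Si8 goblet cells (adjusted p = 0.019), where the libraries of the sorts overlapped. Mxd1, a repressor that opposes Myc, fell 7.34-fold in DC, and its Si8 effect of -0.55 ± 0.24 was not called (it was with neighbouring library numbers paired, adjusted p = 4.85e-06).

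**Figure D4:**
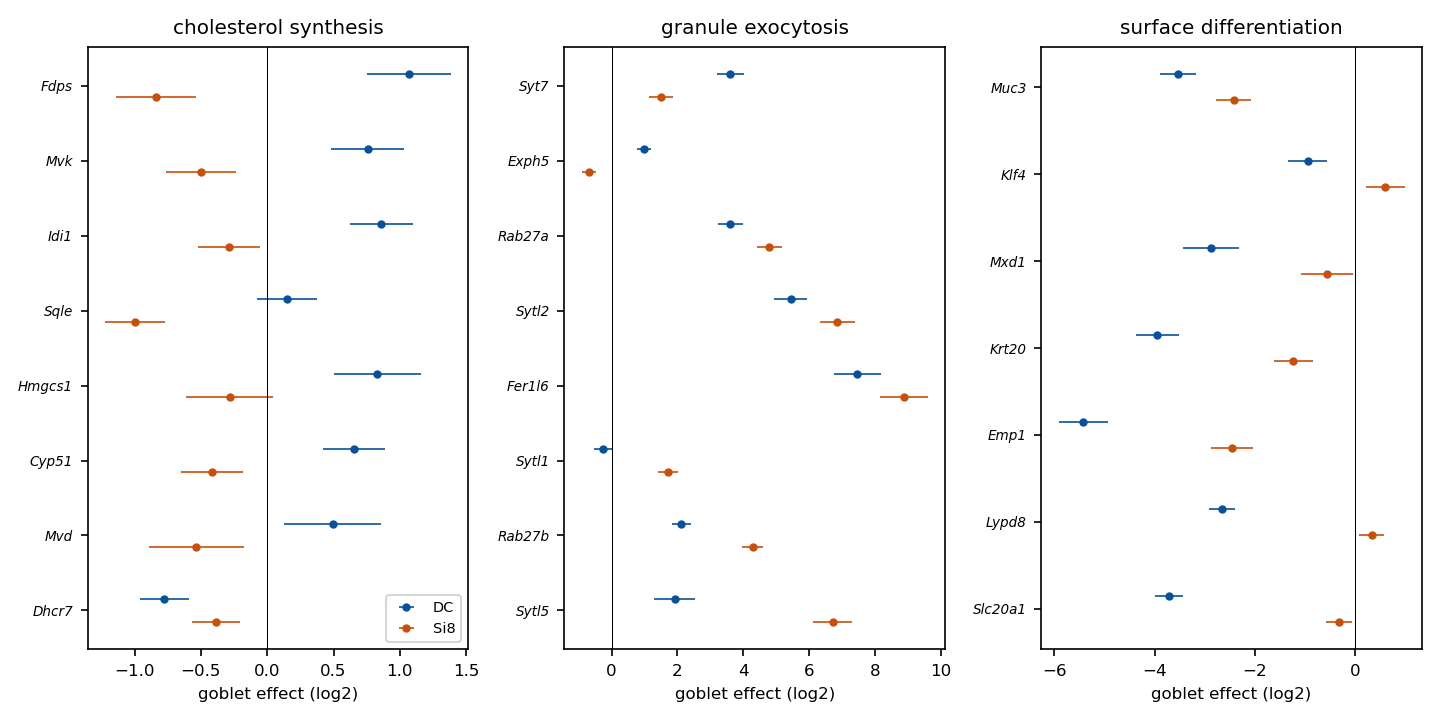
Goblet effect in DC (blue) and Si8 (orange) of the genes named in the text from 3 lists (8, 8 and 7 genes), as log2 fold change of goblet over other cells with 95% intervals from the fit, ordered by the difference. Every cholesterol synthesis gene shown but Dhcr7 has the called higher effect in DC, every granule exocytosis gene shown but Syt7 and Exph5 has the called lower effect in DC, and so does every surface differentiation gene shown.

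The colonocyte absorption list had 13 of 18 tested genes called, 10 with the DC effect below the Si8 effect, and a median difference of -1.57. Slc26a3, the chloride and bicarbonate exchanger, fell from 1979 ± 224 to 51.8 ± 15.5 CPM in DC and from 158 ± 3.70 to 46.8 ± 3.63 in Si8, so that goblet cells of the 2 regions differed by 0.14 ± 0.14. Car4 and Slc9a3, a membrane carbonic anhydrase and the sodium and proton exchanger, fell 53.8-fold and 64.6-fold in DC against 5.07-fold and 8.99-fold in Si8. Car2 stood at 661 ± 44.5 and 374 ± 12.04 CPM in other and goblet cells of DC and at 2.80 ± 0.349 and 0.276 ± 0.0378 in those of Si8, with effects of -0.82 ± 0.08 and -3.33 ± 0.15. In drug and foreign compound metabolism 11 of 16 tested genes were called, 10 with the DC effect below, and Ces2c, a carboxylesterase with close copies, fell 36.4-fold in DC and 6.09-fold in Si8.

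Genes of the interferon response had lower goblet effects in DC. Of 15 tested 8 were called, each with the DC effect below the Si8 effect, and the median difference was -1.20. Ifit1 and Oasl2, antiviral effectors, fell 14.98-fold and 6.82-fold in DC goblet cells and 3.42-fold and 1.62-fold in those of Si8. Ifit1bl1, a relative of Ifit1, fell from 369.9 ± 20.8 to 9.22 ± 2.70 CPM in DC and from 294 ± 51.996 to 102 ± 28.7 in Si8. Ddx60, an RNA helicase of the antiviral response, reversed, with effects of -0.80 ± 0.31 and 1.09 ± 0.29 and an overlap of the sorts in Si8. In the MHC class II list 5 of 7 tested genes were called, and they did not go 1 way: Cd74, the invariant chain, fell 12.99-fold in DC and 3.07-fold in Si8, whereas H2-DMb1 reversed at levels of 0.677 and 2.35 CPM in DC other and goblet cells and 66.9 and 27.5 in those of Si8.

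Crypt and stem cell markers had lower goblet effects in DC for 8 of 14 tested genes and higher for 2, with a median effect of 0.04 in DC and 0.65 in Si8. Prom1, a membrane protein of progenitors, fell from 496 ± 31.1 to 169.9 ± 21.2 CPM in DC goblet cells and rose from 194 ± 29.4 to 373 ± 21.1 in those of Si8, a difference of -2.49 ± 0.15 (adjusted p = 1.9e-10). Lgr5, the receptor that marks crypt base stem cells, reversed as well, with effects of -0.78 ± 0.21 and 0.62 ± 0.19 and an overlap of the sorts in Si8. Axin2, a target of Wnt signalling, went against the list, with no called effect in DC (-0.03 ± 0.11) and a fall from 179 ± 19.8 to 87.7 ± 13.9 CPM in Si8. The 8 became 4 under total counts without scaling factors. Of 24 proliferation genes all were higher in goblet cells of Si8 and 1 in those of DC, where 33.5% and 25.5% of all genes were, but 3 differed between the regions by the test. They were Mcm3, Mcm6 and Tyms. That count ranged from 1 to 9 when 1 library was left out, lowest without DC other replicate 2 or Si8 goblet replicate 1 and highest without Si8 other replicate 2, and was 13 without the filter on low counts. With total counts only, edgeR called 0 of the 24 (1 at an unadjusted p under 0.05), and DESeq2 with its own scaling called 3. With neighbouring library numbers paired, 19 of the 24 were called, each with the DC effect below the Si8 effect. Among genes of the early response to stress and cell isolation 9 of 18 were called, 6 with the DC effect below. Fosb measured 533 ± 157 and 513 ± 109 CPM in other and goblet cells of DC and 87.3 ± 30.3 and 492 ± 142 in those of Si8, and Dusp1 rose 2.13-fold in Si8 goblet cells with a DC effect of -0.34 ± 0.19. The 6 became 10 without Si8 goblet replicate 1, 12 without the filter and 12 with neighbouring library numbers paired.

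**Figure D5:**
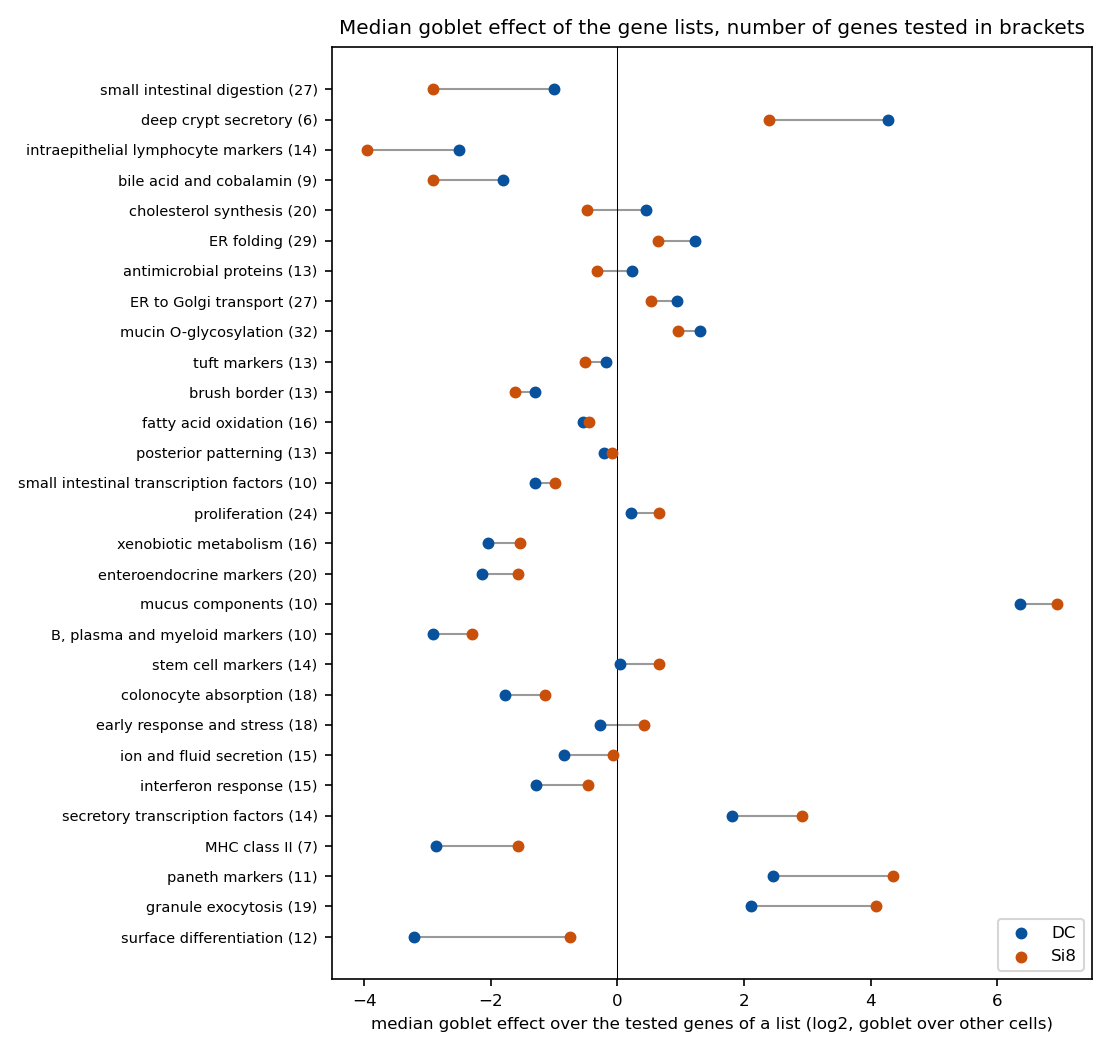
Median goblet effect over the tested genes of each gene list with at least 5 of them, in DC (blue) and Si8 (orange), as log2 fold change on the horizontal axis, ordered by the gap between the medians. Surface differentiation, granule exocytosis and Paneth markers have the lowest DC median relative to Si8, and small intestinal digestion and deep crypt secretory genes the highest. Of the 11 Paneth markers only 1 had a called difference, beside 32.2% of all genes. Defa17, Defa21, Defa22 and Defa24 among them had no counts in either DC sort, so the Paneth gap is uncertain. The medians of cholesterol synthesis, antimicrobial proteins and early response genes lie on opposite sides of 0.

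Several genes went the same way in both regions with very different sizes. Anxa13, an intestinal annexin, rose from 0.398 ± 0.203 to 36.3 ± 4.24 CPM in DC but only from 96.2 ± 10.5 to 119 ± 12.1 in Si8, where the libraries overlapped, a difference of 6.19 ± 0.24 (adjusted p = 3.8e-13). Fcna, a ficolin that recognises microbial sugars, and Insrr, an alkali-sensing receptor of the insulin receptor family, reached 13.8 ± 1.06 and 13.6 ± 3.75 CPM in DC goblet cells and under 2 CPM in each other group mean. Pla2g10, a secreted phospholipase A2, and Kcnf1, a potassium channel subunit, had DC effects of 0.65 ± 0.12 and 0.82 ± 0.19 and Si8 effects of 6.09 ± 0.17 and 6.24 ± 0.28, where Si8 other cells held 0.630 and 0.315 CPM. Mal, an apical sorting protein, fell 58.8-fold in DC and 5.15-fold in Si8, and Pfkfb4, a regulator of glycolysis, 1.35-fold and 6.49-fold. A pair of these calls depended on single libraries: that of Tgm5 (-4.58 ± 1.58, adjusted p = 0.033) was lost without any of DC other replicates 1, 2 or 4 or Si8 other replicate 4 (up to 0.173), and that of Exoc3l4 (2.26 ± 0.70, 0.020) without DC goblet replicate 2 (0.0504) or 3 (0.104).

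Some differences involved a group with at most 3 counts over its 4 libraries, for which fitted folds are no bound. Nov, a secreted matricellular protein, had 105813 counts in DC goblet libraries and 299 in DC other libraries, 1492 ± 171 and 4.58 ± 1.61 CPM. In Si8 it had 3 counts in goblet and 3 in other libraries. Its difference (adjusted p = 0.0031) was not called without Si8 other replicate 2 (adjusted p = 0.0883), and with so few counts the Si8 effect was not detectable at this depth. Pla2g2a is named for the secreted phospholipase A2 that kills bacteria and is known from Paneth cells. The annotation used lists it as a polymorphic pseudogene, so its counts do not show that these mice make the enzyme. It had 961 counts in DC goblet and 3 in DC other libraries, a ratio of 292 with a counting interval of 99.6 to 1418. In Si8 it measured 63.1 ± 13.8 against 2.67 ± 1.23 CPM, and its difference was not called with neighbouring library numbers paired (adjusted p = 0.117). Ly6g, a surface antigen known from neutrophils, had 6760 counts in DC other and 176 in DC goblet libraries, and 0 and 4 in the Si8 sorts. Its call was lost when the Si8 counts were thinned to the depth of DC (adjusted p = 0.103). Counting intervals cover counting error only.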

How the data were processed

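The authors deposited gene counts of each region's 8 libraries and tables of normalized values. The submitters' processing notes name FastQC 0.11.2, STAR 2.4.0f, HTSeq 0.6.1p1, DESeq2 1.14 and the mm10 build, with no role or order. The strand setting of the counting is not given in the sources used here, so reads of overlapping and antisense genes cannot be told apart. The deposited normalized signal was used only as a check: 100% of its 518304 values came out as whole reads equal to the deposited counts, within 0.001.

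The count tables were joined by symbol. Of 46882 genes, 37 with symbols starting mt- and 27 date-like entries were left out and 46818 kept. Genes passing edgeR's filter on low counts (15945) were fitted over all 16 libraries with edgeR 4.0.16 in R 4.3.3 (TMM scaling, robust quasi-likelihood test, common biological coefficient of variation 0.128), with the contrast of the DC goblet effect minus the Si8 goblet effect. Adjusted p-values are Benjamini-Hochberg over all genes tested, called under 0.05. On simulated data for this contrast with 15725 genes tested, 62 of 97 genes with a true difference of 1 (63.9%) and 89 of 100 with 2 (89%) were called, and 6 of 15528 with none. Far fewer genes carried a true difference there than the 32.2% called in the data. The simulated spread followed the fitted trend over expression level and was not set gene by gene. These rates may therefore not hold for the data.

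Genes were named by rule: at least 10 CPM in 1 group and no Gm or Rik symbol; the 8 reversals per direction with the largest smaller effect; the 4 largest differences per direction of each other kind; the most abundant genes with at most 3 counts in a group; and, of each of 32 lists (503 entries), the 5 largest called differences and the most abundant member. Gcnt1, B3gnt7, Galnt4, Galnt5, Galnt12, Gucy2c, Kcne3, Kcnq1, Cftr, Muc3, Sox9, Muc2, Atoh1, Foxa3, Spdef, Rab27a, Sytl2, Exph5 and the remaining list members given by name lie outside it and were chosen after their values were seen. Some genes that the rule takes in are not reported here. The genes, lists and tests were chosen with earlier results of these data known. Locations are from GENCODE M21 (GRCm38). Alternatives were DESeq2 1.42.0 and its size factors, total counts, other filters, thinned Si8 counts, mitochondrial genes kept, and leaving out each library. Leaving out nuclear genes of mitochondrial sequence, and a block of libraries with neighbouring numbers in the titles, were added after seeing the data.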

Additional observations from a re-analysis of the deposited data

Results flagged for a closer look

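The goblet effect differed between DC and Si8 for 5141 genes by the test of the difference itself.

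Mitochondrially encoded genes were left out of the fit. They held no counts in any DC library, and a median of 7.32% of the counts in Si8 other libraries and 3.87% in Si8 goblet libraries. The regions' counts were deposited in separate tables, so between regions a difference in the making of the tables cannot be told apart from the region. With these genes kept in Si8, 485 of the 504 reversals were found again.

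In 12 of 248 groups of 4 libraries, 1 library stood apart from the other 3 by Dixon's criterion, and chance alone gives about 1 in 20. Cyp2d10 stood at 2.69 CPM in Si8 goblet replicate 3. Rin3 stood at 16.7 CPM in DC other replicate 2 and at 5.74 CPM in Si8 other replicate 4. St6gal1 stood at 14.7 CPM in Si8 goblet replicate 4, Pla2g10 at 58.6 CPM in Si8 goblet replicate 3 and Sytl5 at 5.92 CPM in DC goblet replicate 3. Tgm5 stood at 0.516 CPM in DC goblet replicate 4 and at 0.105 CPM in Si8 other replicate 2. Car2 stood at 0.220 CPM in Si8 goblet replicate 1. Among summed marker lists, the deep crypt secretory sum stood at 3042 CPM in DC goblet replicate 1, the tuft cell sum at 82.1 CPM in DC other replicate 2 and the stromal sum at 21.7 CPM in DC other replicate 4.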

How the results depend on the processing

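The count of 5141 genes with a different goblet effect ranged from 4705 to 6968 over the 9 other settings and from 4707 to 5551 when 1 library was left out. Genes with the lower effect in DC numbered 1897 under total counts without scaling factors against 2896, and 2527 to 3232 when 1 library was left out. Under total counts, 4138 of the 5141 calls and 415 of the 504 reversals were shared. Of 167 named genes with a called difference, 140 kept the call in all 25 alternatives and 27 lost it in at least 1, and in 0 of them did the edgeR or DESeq2 estimate change direction. The library numbers in the titles all differ, and no label ties a goblet library to another library. Neighbouring numbers (1 and 2, up to 17 and 18) each join 1 goblet and 1 other library of a region, and these pairs were fitted as a replicate block, chosen after seeing the data. Deviations from the group means correlated best with the neighbouring library for all 8 goblet libraries, at 0.29 to 0.39 in Si8 and 0.07 to 0.26 in DC, a hint from the data and not the design. With the block, 6968 genes had a different goblet effect, 5124 of them shared with the 5141, and 629 were reversed, of which 500 were shared with the 504. Goblet effects called rose from 8773 to 9868 in DC and from 10354 to 11345 in Si8. The region effects cannot be fitted with this block. Depth limits DC more than Si8, since its libraries held 11916381 to 18532241 counts against 30842725 to 41080052. Best2 and Ly6g, with few counts in Si8, were no longer called when its counts were thinned.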

Other observations

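In the posterior patterning list 2 of 13 tested genes were called, beside 32.2% of all genes, and Cdx1, a homeobox factor, had the lower effect in DC (-0.51 ± 0.13, adjusted p = 0.0047, and 0.116 under total counts). Among small intestinal transcription factors 2 of 10 were called (5 with neighbouring library numbers paired), Hnf4g with the higher effect in DC and Hnf4a with the lower, by 0.74 ± 0.12 and -0.83 ± 0.13. Hnf4a measured 931 ± 91.9 and 327 ± 15.7 CPM in other and goblet cells of DC and 1398 ± 111 and 874 ± 58.2 in those of Si8.

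Markers of hormone-producing enteroendocrine cells were lower in goblet cells of both regions, in 16 of 20 tested genes in DC and 17 in Si8. Of all genes, 29.5% were lower in DC goblet cells and 31.4% in those of Si8. The difference was called for 9 of the 20 markers, of which 8 had the lower effect in DC. Among all genes these shares were 32.2% and 18.2%. The 8 became 5 under a filter of at least 1 CPM in all libraries of a group, with Si8 counts thinned, or without DC goblet replicate 3, and 12 with neighbouring library numbers paired. Pcsk1, a prohormone convertase, reversed, with effects of 1.93 ± 0.14 in DC and -0.37 ± 0.13 in Si8. Among antimicrobial proteins 5 of 13 were called, a share close to that of all genes, and their median difference of -0.13 became 0.05 under total counts without scaling factors.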
